A study of Zea mays with 2 samples.

Results

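The glutathione S-transferase (GST) family was examined in maize stems of the dominant dwarf mutant D11 and of the wild type (WT), inbred line Mo17. Its members were the probe sets paired with a single gene that is named gst with a number, or bz2, in the platform annotation or in RefSeq. This gave 35 probe sets for 31 genes, out of 17621 probe sets outside the AFFX controls and 1108 genes that the annotation pairs with a probe set. RefSeq listed 33 genes of these names. No probe set was paired with the other 2, bz2 and gst20, so they were not analysed here.

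Stems of D11 and of WT were taken at tassel emergence from plants without treatment, and total RNA of each was put on 1 Affymetrix Maize Genome Array. D11 was found in the first generation of a cross between Mo17 and inbred line HN06, and was kept by repeated backcrossing to Mo17, B73 and W22. The D11 parent of the segregating crosses carried the dominant allele on one chromosome of the pair. The nuclear background of the D11 plants used for the array is not given in the sources used here, nor is the number of plants per RNA sample. Differences between the genotypes and differences between backgrounds therefore cannot be told apart. With 1 array per genotype there is no replicate error, and no test could be made.

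GSTs join the tripeptide glutathione to reactive or foreign molecules, and some also reduce peroxides. The conjugates are carried into the vacuole by ABC transporters of the MRP group. Plants have several classes of these enzymes, of which phi and tau are the most numerous. In maize they are best known for the detoxification of herbicides such as atrazine and alachlor and for their induction by safeners, and bz2 serves in the deposition of anthocyanin pigment. The sources used here give no class for single genes. From general knowledge of maize, gst1, GST3 and GSTIV were placed in phi and gst5 in tau, and the other 27 genes were left without a class.

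Most GST transcripts gave a signal above background in both stems, and they went both ways in D11. The signals are MAS 5.0 intensities in arbitrary units. Background was taken as the highest of the 23 Tag and TrpnX control probe sets, which match no maize transcript. This control level was 24.7 in D11 and 27.6 in WT. Of the 35 GST probe sets, 21 (60.0%) were over it in both stems, against 70.7% of all probe sets. A further 7 of the 35 were over it in D11 alone and 1 in WT alone, against 796 and 413 of all 17621 probe sets. The remaining 6 (17.1%) were over it in neither stem, against 22.4% of all probe sets. By gene, 19 of the 31 had a probe set over the controls in both stems and 6 had none in either. A signal also depends on the probes, so signals of different probe sets were not compared as amounts of transcript. In bulk tissue, fewer cells of a type and less RNA per cell cannot be told apart.

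**Figure D1:**
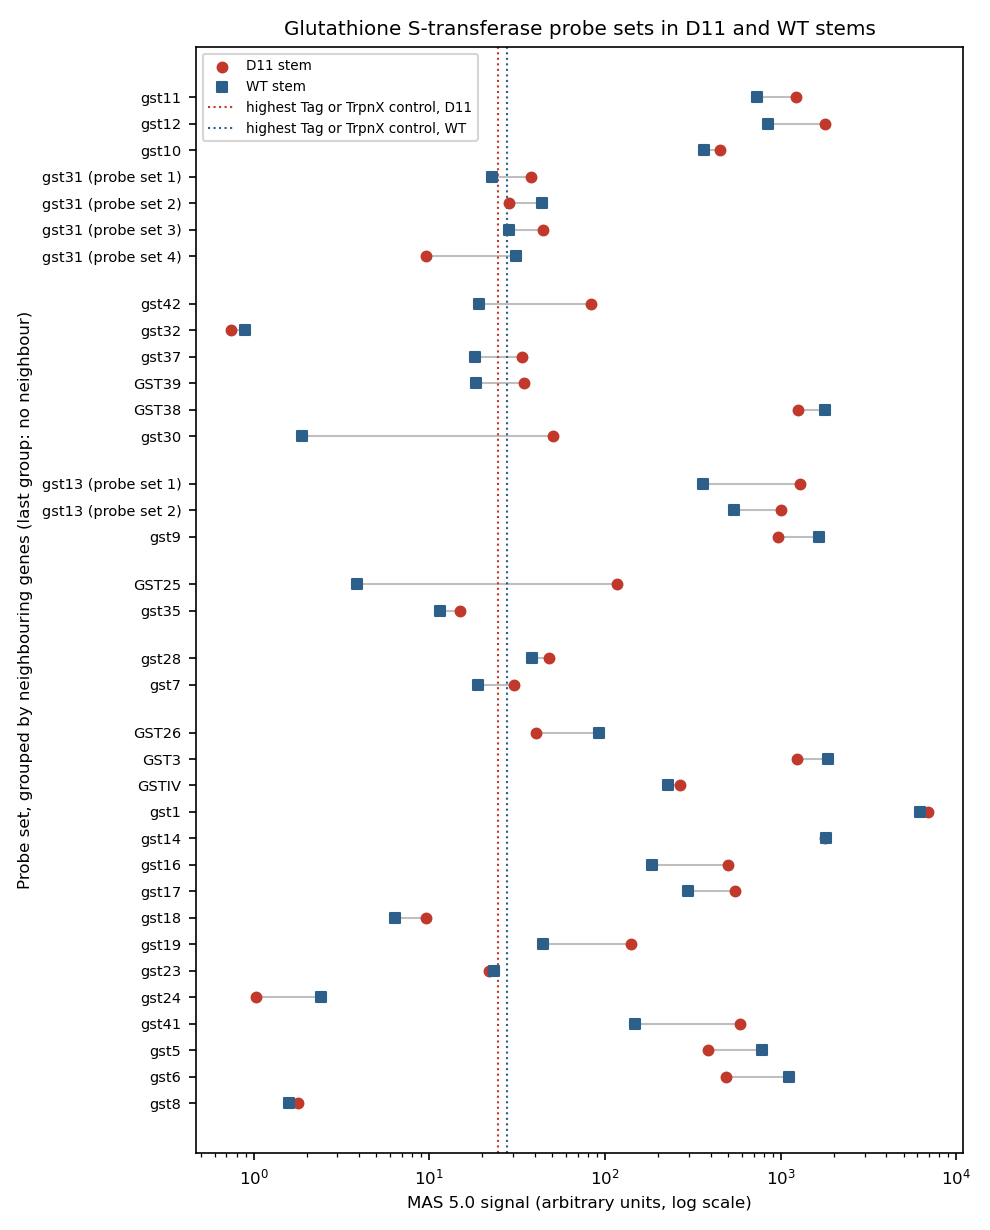
MAS 5.0 signal (log axis, arbitrary units) of each of the 35 GST probe sets in the D11 stem (circles) and the WT stem (squares), 1 array each, with genes that lie near each other in the genome drawn together. Dotted lines mark the highest Tag or TrpnX control, 24.7 in D11 and 27.6 in WT, and 21 probe sets lie to the right of both lines in both stems.

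The 3 genes placed in phi differed less than 2-fold between the stems. Other phi genes may be among those left without a class, so these 3 do not describe the whole class. The gene of GST I, gst1 (LOC542366), a herbicide-conjugating enzyme, gave 6897 in D11 and 6211 in WT. The ratio of 1.11 lay between 0.964 and 1.28 under 4 other scalings of the arrays, so no direction can be given. GSTIV (LOC542311), the safener-inducible enzyme, had 266.9 in D11 and 228.7 in WT. Its ratio of 1.17 lay between 1.01 and 1.18 under the 4 other scalings, so it was close to equal in the stems. GST3 (LOC541990), for GST III, had 1233 in D11 and 1855 in WT and was 1.51-fold lower in D11. The median log2 ratio of the 3 was 0.15, the value of gst1, and it turned to -0.054 when the arrays were centred on their medians. It was also below 0, at -0.18, without gst1, when probe sets with names ending in _s_at, _x_at or _a_at were left out.

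The gene gst5 (LOC542734), for GST V, was the only one placed in tau and was 2.03-fold lower in D11. Its signal was 387 in D11 and 783 in WT, from a probe set whose name ends in _a_at. This gene alone does not describe the tau class. The gene gst6 (LOC541991) had 489 in D11 and 1110 in WT and was 2.27-fold lower. GST26 (LOC541839) was lower to the same extent, 2.27-fold, but its signals of 40.7 in D11 and 92.5 in WT were much closer to the controls. These were the 3 members over the controls in both stems that were at least 2-fold lower in D11. The ratio of gst5 lay close to the 2-fold line, at 2.01-fold to 2.33-fold lower under the 4 other scalings.

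At the other end, 5 probe sets over the controls in both stems were at least 2-fold higher in D11. The gene gst41 (LOC541849) had 588 in D11 and 148.5 in WT, a 3.96-fold difference. A probe set of gst13 (LOC541831) had 1293 in D11 and 360.3 in WT and was 3.59-fold higher. Its name ends in _x_at, the manufacturer's mark for probes that can also bind other transcripts. The other probe set of gst13 had 1006 in D11 and 542 in WT, 1.86-fold higher, so both pointed the same way and differed in size.

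The gene gst19 (LOC541834) had 140.5 in D11 and 44.5 in WT, 3.15-fold higher, with both signals under the array median (190.6 in D11 and 165.4 in WT). The gene gst16 (LOC542490) had 499.8 in D11 and 185.9 in WT and was 2.69-fold higher. For gst12 (LOC541830) the signals were 1777 in D11 and 842 in WT. Its ratio of 2.11 dropped under 2-fold, to 1.83, when the arrays were centred on their medians. The gene gst17 (LOC542543), at 549 in D11 and 297 in WT, was 1.85-fold higher. The gene gst14 (LOC541832) was nearly equal in the stems, with 1777 in D11 and 1813 in WT.

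None of the 21 probe sets over the controls in both stems reached the 5-fold threshold that the study used, in either direction. Among all probe sets over the controls in both stems, 0.714% were at least 5-fold higher and 0.177% at least 5-fold lower. At 2-fold, the 5 higher and 3 lower GST probe sets stand beside 6.2% higher and 3.95% lower among all. Together these 8 made up 38.1% of the 21, against 10.2% of all probe sets over the controls and 12.1% of those that were also paired with 1 gene symbol. Of the brighter GST probe sets, those over the median of the array in both stems, 5 of 15 (33.3%) differed at least 2-fold, against 6.33% of all. The SD of the log2 ratios was 0.99 for the 21 GST probe sets, against 0.67 for all 12462 and 0.81 for those also paired with 1 gene symbol. Related genes share sequence and are not independent, so these shares describe the 2 arrays only.

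The GST ratios lay on both sides of 1. Of the 21 probe sets, 13 had a higher signal in D11 and 8 a lower one, and among all probe sets over the controls 55.0% were higher in D11. The 21 stood for 19 genes, with both gst13 probe sets among the higher and gst31 probe sets on both sides. The median log2 ratio was 0.32 over the 21 GST probe sets and 0.06 over all. Under the 4 other scalings it was between 0.11 and 0.33 for GST and between -0.15 and 0.07 for all. The sign of 2 members, gst1 and gst14, depended on the scaling.

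**Figure D2:**
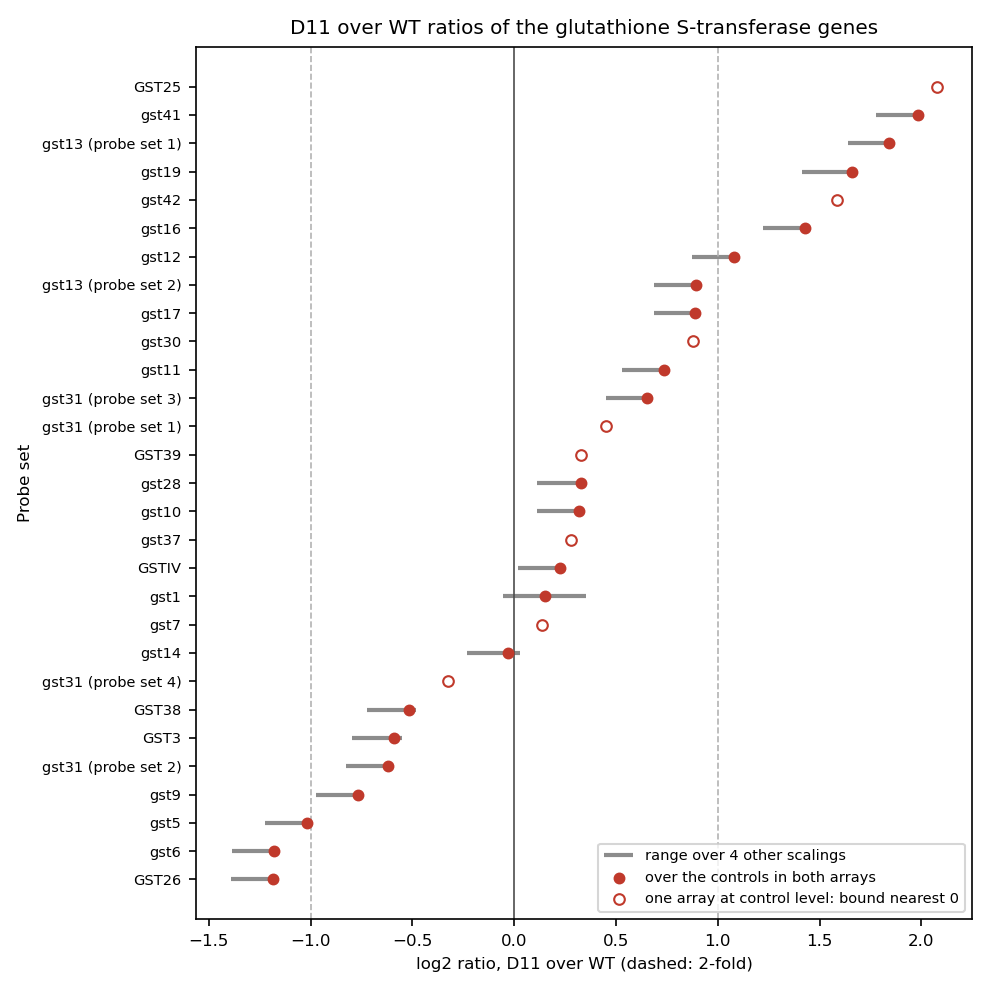
Log2 ratio of D11 over WT for the 29 GST probe sets over the controls in at least 1 stem. Filled points are the 21 over the controls in both stems, with bars for the range under 4 other scalings. Open points are bounds, computed with the control level in place of the weaker signal. Filled points run from -1.18 for GST26 to 1.98 for gst41, and 5 lie at or beyond 2-fold higher.

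Several GST genes are neighbours in the genome, and neighbours did not always share a direction. By gene order in RefSeq (Zm-B73-REFERENCE-NAM-5.0, which served only for names and gene order), 16 member genes fell into 5 groups with at most 20 other genes between successive members. In the group of gst11, gst12, gst10 and gst31, the signal of gst11 (LOC541829) was 1226 in D11 and 737 in WT, 1.66-fold higher. Its direct neighbour gst12 was 2.11-fold higher. The next member, gst10 (LOC541828), had 454 in D11 and 364 in WT, 1.25-fold higher. All 3 thus had a ratio above 1, and this held under the 4 other scalings.

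The last gene of that group, gst31 (LOC541842), was measured by 4 probe sets that disagreed. Their signals ran from 9.62 to 44.6 in D11 and from 22.8 to 43.6 in WT, all near the controls. The 2 probe sets ending in _a_at were higher in D11 (1.57-fold, and at least 1.37-fold), and the 2 ending in _x_at were lower (1.54-fold, and at least 1.25-fold). No direction can be given for gst31.

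The direct neighbours gst13 and gst9 differed in direction. While both gst13 probe sets were higher in D11, gst9 (LOC542629) had 967 in D11 and 1649 in WT and was 1.70-fold lower. This contrast held under the 4 other scalings, where gst9 was between 1.69-fold and 1.96-fold lower. The pair gst28 and gst7 was close to the controls. The gene gst28 (LOC541840) had 48.1 in D11 and 38.3 in WT, and gst7 (LOC542587) had 30.3 in D11 and 18.9 in WT, where it was at control level.

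In the group of 6, gst42, gst32, gst37, GST39, GST38 and gst30, only GST38 (LOC541847) was over the controls in both stems. It had 1247 in D11 and 1783 in WT and was 1.43-fold lower. Of its neighbours, 4 were over the controls in D11 alone. The gene gst42 (LOC541850) had 83.0 in D11 and 19.1 in WT, and was at least 3.005-fold higher in D11. The gene gst30 (LOC541841) had 50.7 in D11 and 1.88 in WT, at least 1.84-fold higher. For GST39 (LOC541848) and gst37 (LOC541846) the D11 signals were 34.7 and 33.5, and the bounds were only 1.26-fold and 1.21-fold. The sixth, gst32 (LOC541843), was at background in both stems.

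The highest bound of the family was that of GST25 (LOC541838). Its signal was 116.4 in D11, under the array median, and 3.85 in WT. With the WT control level in place of the WT signal, it was at least 4.22-fold higher in D11. Its neighbour gst35 (LOC542491), separated from it by 1 gene, was at background in both stems, with 14.9 in D11 and 11.5 in WT.

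By the deposited signals alone, GST25 and gst30 were the 2 GST probe sets past 5-fold, with quotients of 30.2 and 27.0. This count uses no minimum signal, and by it 2.26% of the 17621 probe sets were 5-fold or more higher and 2.57% lower. No GST probe set was at least 5-fold lower. At 2-fold, 8 of the 35 GST probe sets were higher and 5 lower in D11, beside 9.93% and 9.83% of all. The 8 include GST25, gst30 and gst42, which were at control level in WT. The 5 include gst24, at background in both stems, and a gst31 probe set at control level in D11. The WT signals of GST25 and gst30 lay within the range of the controls, so their quotients are not measured fold changes. With weak signals raised to the control level, no GST probe set was at least 5-fold different, and 0.789% of all probe sets were higher and 0.153% lower. At 2-fold the control level left 7 GST probe sets higher and 3 lower, beside 5.45% and 3.13% of all. The annotation in the study's list of changed genes gives both probe sets to gst30, whereas the platform annotation pairs one of them with GST25. The identity of that transcript is therefore uncertain.

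**Figure D3:**
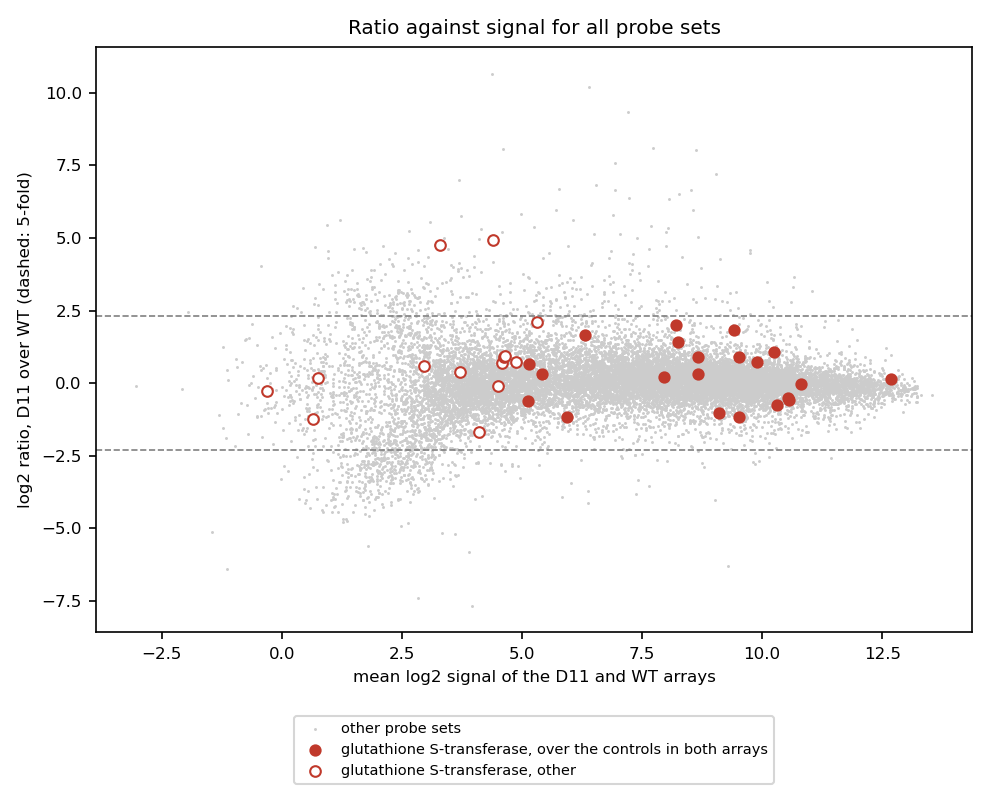
Log2 ratio of D11 over WT against the mean log2 signal of both arrays for 17621 probe sets (grey), with the 35 GST probe sets in red. Filled points are the 21 GST probe sets over the controls in both stems, all inside the dashed 5-fold lines, and open points are the other 14, of which GST25 and gst30 lie above the upper line at weak mean signals.

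The 6 genes at background in both stems were gst8, gst18, gst23, gst24, gst32 and gst35, and no fold change is given for them. Among these, gst23 (LOC541845), a gene linked in maize to resistance to several leaf diseases, had 21.8 in D11 and 23.4 in WT, just under the controls. The transcripts of these genes were not detectable at this signal, which does not show that they were absent.

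Genes that make and recycle glutathione differed little between the stems. The lists of related genes were small because only 1452 probe sets were paired with 1 gene symbol. For the first enzyme of glutathione synthesis, glutamate-cysteine ligase (gsh1, LOC542026), the signal was 537 in D11 and 544 in WT. Glutathione synthetase (gsh2, LOC542055), for the second step, had 341 in D11 and 328 in WT. The glutathione reductase gene gsr1 (LOC541986), for the return of oxidized glutathione to its reduced form, had 246 in D11 and 313 in WT, 1.27-fold lower. All 3 were over the controls in both stems and none differed 2-fold.

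Of 4 probe sets for cysteine and sulfur assimilation, which supplies the cysteine of glutathione, 3 were over the controls in both stems and none of them differed 2-fold. The APR-like gene aprl1 (LOC606419) had 1853 in D11 and 3146 in WT, 1.70-fold lower. The serine acetyltransferase gene sat3 (LOC542499) had 1005 in D11 and 1223 in WT. Of 4 probe sets for MRP transporters, 3 were over the controls in both stems. Of these, MRP1 (LOC100037760) was 2.78-fold lower, with 61.8 in D11 and 171.7 in WT, MRP4 had 906 in D11 and 946 in WT, and MRP2 was 1.42-fold higher, with 114.3 in D11 and 80.8 in WT. Of 5 probe sets for anthocyanin genes, which act with bz2, only a2 (LOC606406), for a dioxygenase of the pathway, was over the controls in both stems, with 126.1 in D11 and 113.5 in WT. The anthocyanin regulators c1 and pl1 were at background in both stems.

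**Figure D4:**
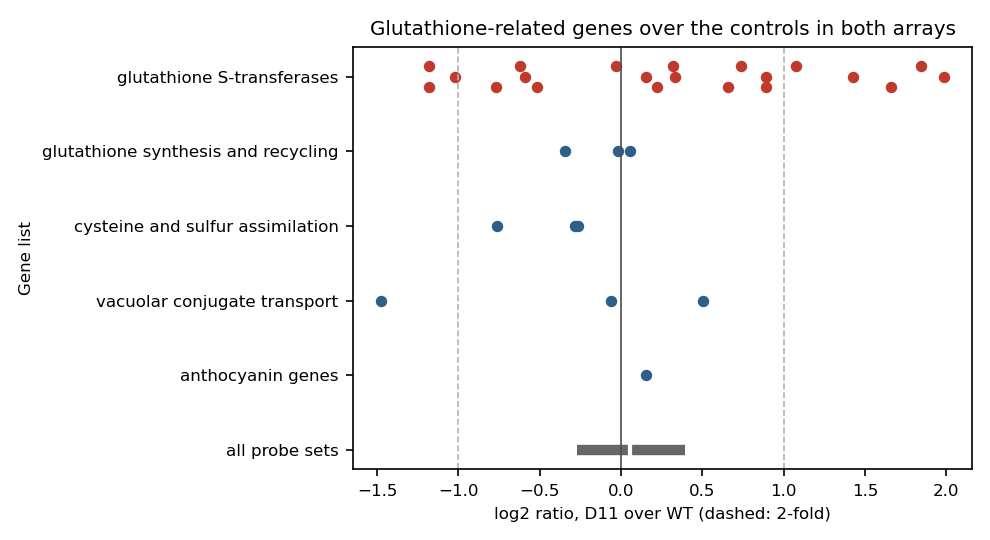
Log2 ratio of D11 over WT for probe sets over the controls in both stems: 21 for GST and 3, 3, 3 and 1 for the lists of related genes. The grey bar spans the quartiles of all 12462 such probe sets, from -0.27 to 0.39, with their median at 0.06. GST probe sets lie on both sides beyond this bar. Of the 3 genes of glutathione synthesis and recycling, gsh1 and gsh2 lie near 0 and gsr1 lies at -0.35, just below the bar.

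As to the arrays, the 63 bacterial spike controls differed by at most 1.38-fold, with an SD of 0.20 on the log2 scale. The signal near the 3′ end of a transcript over that near the 5′ end is a measure of RNA integrity and rises with degradation. This ratio was lower in D11 for 4 of 5 control transcripts, such as ubiquitin (1.34 in D11 and 1.86 in WT). For actin it was higher in D11, 4.88 against 3.94 in WT. Secondary wall markers of stem tissue were over the controls in both stems for 4 of 4 probe sets, with ratios under 2-fold. Leaf markers were so for 10 of 13 and had a summed signal of 18948 in D11 and 20322 in WT, most of it from the bright lhcb and rbcS probe sets. The C4 genes ppdk1 and pep1 were lower in D11, and me3 was 1.12-fold lower. Of the ppdk1 probe sets, the one with the largest difference over the controls had 115.7 in D11 and 249.1 in WT (2.15-fold lower), and pep1 had 13.4 in D11 and 47.5 in WT (at least 1.92-fold lower). Few markers of pollen (0 of 5) and kernel (1 of 8) were over the controls in both stems, and no root marker was paired with a probe set. Of the pollen list, PRO1 (15.1 in D11 and 47.0 in WT) and PRO3 (21.9 in D11 and 47.2 in WT) were over the controls in WT alone. A probe set of the kernel gene sh2 was over them in D11 alone, at 26.5. Of 2 homeobox genes of the shoot meristem, lg3 was 2.60-fold higher in D11 and kn1 1.06-fold. The part of RNA integrity and tissue composition in the GST ratios was not tested.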

How the data were processed

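Stems of D11 and WT were profiled with 1 array each. The deposited values are intensities on a linear scale, which the authors made with MAS 5.0 (background correction, summary per probe set and scaling per array). The submitters' notes also name Affymetrix Expression Console, and versions are not given in the sources used here. Of 17734 probe sets, 113 were AFFX controls and were set aside. The other 17621 include 66 reporter probe sets (RPTR), of which 1 was over the controls in both stems, and these entered the shares of all probe sets. Leaving them out, an alternative added after seeing the data, gave 71.0% over the controls in both stems, against 70.7%. The platform annotation pairs 1452 probe sets with 1 gene symbol, 1 with several and 16168 with none.

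For each probe set the D11 over WT quotient of the signals was taken, with the 5-fold threshold of the study and a 2-fold one. Where a signal did not exceed the highest Tag or TrpnX control, that control gave a bound. The number of arrays limits the precision, and no test was made. Classes were to be assigned from protein sequences, which were not used here, so they rest on general knowledge. Every member over the controls in at least 1 stem was to be named, or given within a range. Genes of related lists are named where at least 2-fold different, and the rest were chosen with their values in view. The members and lists were chosen with earlier results of these data known, and the gene order groups after the values were seen. A hemoglobin whose alias matched a kernel marker was left out.

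The alternatives were median centring, quantile normalization, lowess (span 0.3) and spike control scaling, which are the 4 other scalings, an offset of 24.7 (percentile 25 of all signals), other background levels and subsets of probe sets. The counting steps were tested on simulated data. Python 3.11.15 was used with numpy 2.4.6, pandas 2.3.3, statsmodels 0.14.6 and matplotlib 3.10.9.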

Additional observations from a re-analysis of the deposited data

How the results depend on the processing

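All counts and medians here cover the 35 GST probe sets unless stated, and fewer probe sets enter under some settings by construction. By the deposited signals, 8 probe sets were at least 2-fold higher, 5 at least 2-fold lower and 2 at least 5-fold higher in D11. The shares of all probe sets were 9.93%, 9.83% and 2.26%. The count at least 5-fold higher was 0 with weak signals raised to the control level, with the offset, and over the controls in both stems. Among all probe sets, the share was 0.789% with the control level and 0.714% over the controls in both stems. The count at least 2-fold lower was 3 with the control level and over the controls in both stems, beside 3.13% and 3.95% of all. It was also 3 without probe sets ending in _s_at, _x_at or _a_at, and 1 with the offset. Over the controls in both stems, 5 reached 2-fold in the higher direction, beside 6.2% of all. All 35 had a median log2 ratio of 0.37, the value of gst35, which is at background in both stems. It became 0.17 with median centring, 0.21 with the offset, 0.22 with the control level, 0.55 with quantile normalization, 0.60 with lowess and 0.68 for those over the controls in at least 1 stem. Over all probe sets, the median shifted by -0.20 with median centring and by -0.15 with the control level. With median centring the phi median was -0.054 and the tau value, that of gst5 alone, was -1.22, against 0.15 and -1.02 as deposited. Without probe sets ending in _s_at, _x_at or _a_at the median of the phi genes left was -0.18, and no tau value was left. No paired analysis was possible because each genotype has 1 array.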
